A study of Mus musculus with 24 samples.

Results

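The genes described here carry out glucose sensing and the coupling of the ATP-sensitive potassium (KATP) channel to calcium in islet cells. They were chosen by name, as the rows of the mouse islet mRNA table whose symbol is Slc2a2, G6pc2, Kcnj11, Abcc8, Cacna1a, Cacna1c, Cacna1d, Trpm5 or Atp2a3, which makes 9 of the 41549 genes listed. All 9 had enough reads to be tested among 15916 genes. In the beta-cell, glucose enters through a facilitative transporter, is phosphorylated and is burnt for ATP. The rise in ATP closes the KATP channel, the membrane depolarises, voltage-gated calcium channels open and the calcium that enters drives the release of insulin. Calcium pumps of the endoplasmic reticulum (ER) then clear part of it into the ER store.

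Dispersed islet cells of wild type C57BL/6NRj mice of both sexes, 12 to 14 weeks old, were transfected with 50 pmol of an antisense oligonucleotide (ASO). The strain is named so in the study's methods and as C57BL/6k in its reporting summary. It was either a non-targeting control (Ctr) or an inhibitor of the 5′ tRNA fragment of tRNA-Glu(CTC) (αGlu). Treatment followed for 48 h, in medium with 1% serum, with either 0.5 mM palmitate bound to bovine serum albumin (PA) or 0.75% albumin alone (BSA). Every group thus carried a transfected ASO and albumin, and no untransfected islets were part of the comparison. Each ASO was combined with each medium, which gave 4 groups of 6 libraries, and 3 libraries of a group belonged to each of 2 batches. The labels do not say what a batch is or which animals gave which library, so p-values measure the spread between these libraries. The study's reporting summary states that the groups of a biological replicate shared a passage or an animal, but not which libraries those were. Its figure legend gives 6 independent experiments for the islet transcriptomes. The library numbers run in 6 sets of 4, each with one library of every group from one batch, and libraries of a set tended to deviate together. A fit with these inferred sets as a block, added after the data were seen, is given where it changed a call. Totals per library ran from 18214719 to 35001979 counts on genes, the lowest being that of Ctr BSA library S1. Beta-cell identity was visible in every group, with Ins1 at 81290 ± 13560 (SD, n = 6) in Ctr BSA in TPM, a level scaled for gene length and library size, but the preparation was mixed, and acinar, ductal, endothelial, macrophage, fibroblast and glial transcripts were all found. In such bulk RNA, fewer cells of a type and less RNA per cell cannot be told apart.

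The ASO defines the first axis of the design, so its sequence and target are given here as the study's oligonucleotide list has them, 5′ to 3′, with capitals marking the 20 bases of the target that the ASO pairs with.
αGlu ASO: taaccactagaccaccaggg
5′ fragment of tRNA-Glu(CTC): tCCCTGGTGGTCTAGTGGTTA
The ASO was complementary to all bases of the listed target stretch but its first. This target stretch has 21 bases and is shorter than the fragments of tRNA-Glu(CTC) that the study describes.

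The levels of the genes, compared per length in TPM over the 24 libraries, spanned a wide range. G6pc2, the islet-specific glucose-6-phosphatase catalytic subunit, was the most abundant at 1868 ± 557 TPM (SD, n = 24, range 947.7 to 2789), and in Ctr BSA its mean ranked 34th among the genes tested. It was followed by Abcc8 at 641 ± 59.9 TPM (542.8 to 743) and Atp2a3 at 593 ± 116 TPM (406 to 852). The ranges of this pair overlapped, so their order is not set. Slc2a2 came next at 176 ± 40.7 TPM (84.2 to 252.5), below every library of those 3 genes. The pore-forming subunits were lower, with Kcnj11 at 53.8 ± 6.62 TPM (41.2 to 65.5), Cacna1d at 38.7 ± 4.42 TPM (26.4 to 46.7), Cacna1a at 26.9 ± 4.60 TPM (19.2 to 37.97) and Cacna1c at 25.4 ± 3.46 TPM (19.6 to 32.8). The ranges of each neighbouring pair among these 4 overlapped. Within every library, though, Kcnj11 lay above Cacna1d, and Cacna1d above Cacna1a, with a ratio of Cacna1a to Cacna1d of at most 0.950. Trpm5 was the least abundant at 9.79 ± 4.56 TPM (4.09 to 18.3), below all libraries of Cacna1c.

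**Figure D1:**
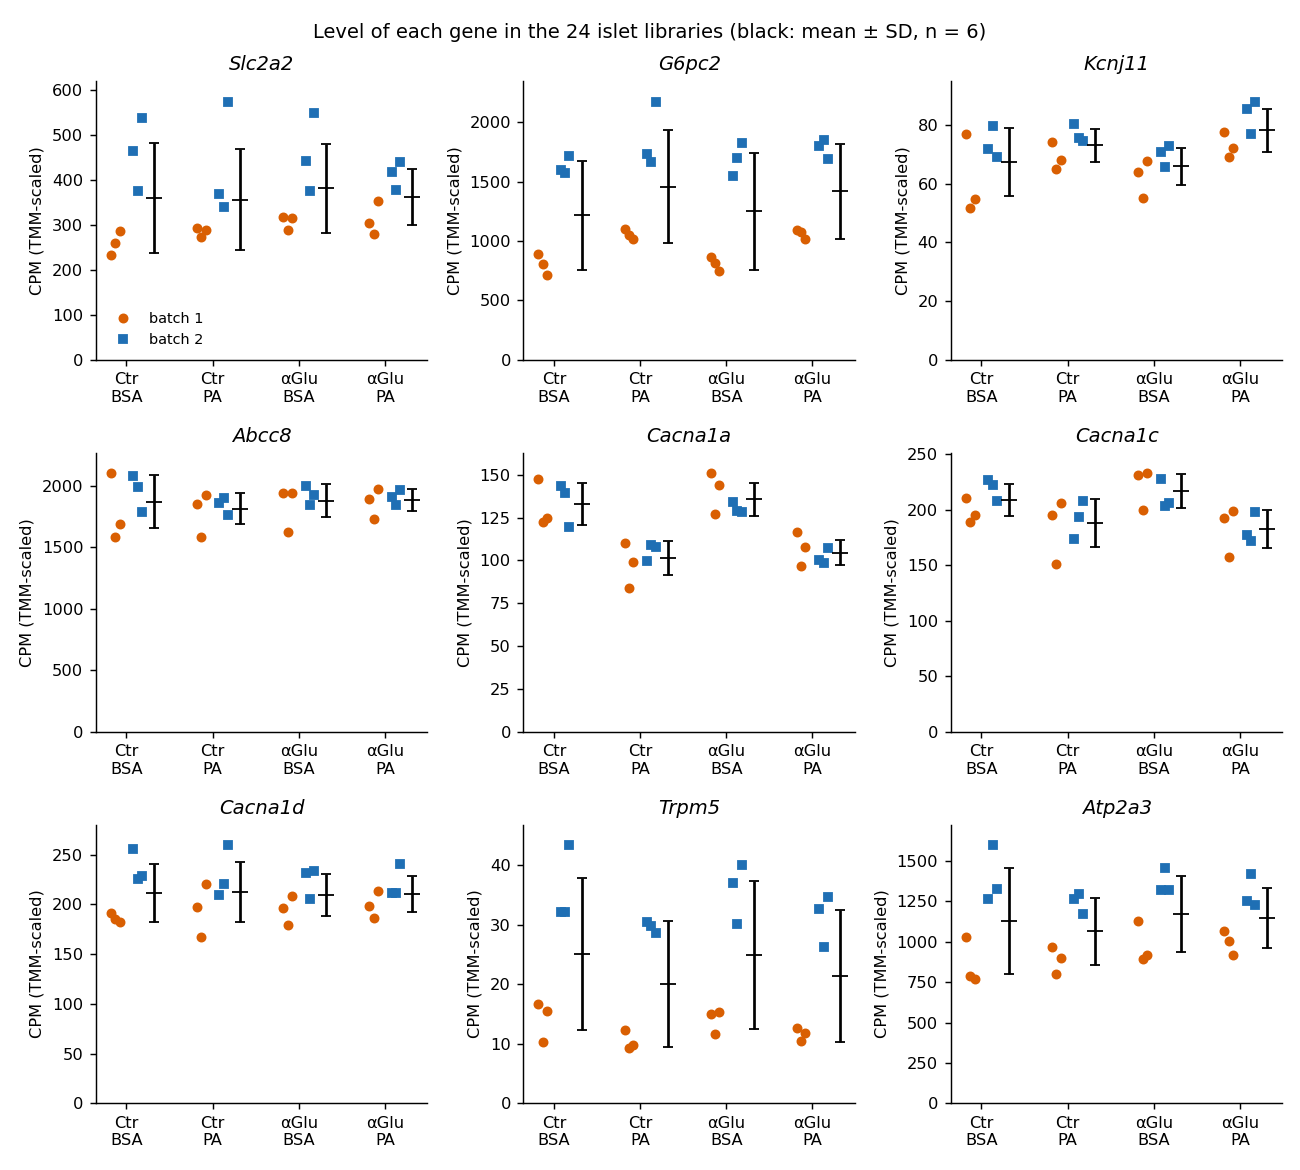
CPM (counts scaled to TMM-adjusted library size, y axis, from 0) of the 9 genes in each of the 24 libraries, by group (x axis). Orange circles are batch 1 and blue squares batch 2, and the black bar is the mean ± SD of the 6 libraries of a group. Cacna1a lies lower in all PA libraries than in all BSA libraries of the same ASO, while G6pc2, Trpm5 and Atp2a3 lie higher in every batch 2 library than in every batch 1 library. The share of all genes that separate so was not counted.

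PA changed a few of these genes, in both directions and by less than 1.5-fold. In Ctr cells G6pc2 rose, and Cacna1a and Trpm5 fell. In αGlu cells G6pc2 and Kcnj11 rose, and Cacna1a and Cacna1c fell. G6pc2 and Cacna1a were thus called under both ASOs. Calls were made at a Benjamini-Hochberg adjusted p below 0.05 over all genes tested in edgeR's quasi-likelihood test, with batch as a term. In Ctr cells 1 of 9 genes was called raised, where 15.5% of all genes tested were, and 2 of 9 lowered, where 14.5% were. In αGlu cells the counts were 2 of 9 raised, against 14.4% of all genes, and 2 of 9 lowered, against 14.2%. These shares lie near those of all genes, so the counts say nothing particular to the 9 genes. With the inferred sets as a block, Cacna1c in Ctr and Trpm5 in αGlu cells also passed, which made 1 of 9 raised (18% of all genes) and 3 of 9 lowered (17.2%) in Ctr cells, and 2 of 9 raised (17.1%) and 3 of 9 lowered (16.9%) in αGlu cells. The median log2 fold change over the 9 was -0.04 in Ctr and -0.02 in αGlu cells, beside 0.01 over all genes in either case. Levels below are in CPM after TMM scaling, and differences are fitted log2 fold changes. Where groups or batches are said not to overlap, the share of all genes that separate so was not counted. Such statements describe these libraries only.

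**Figure D2:**
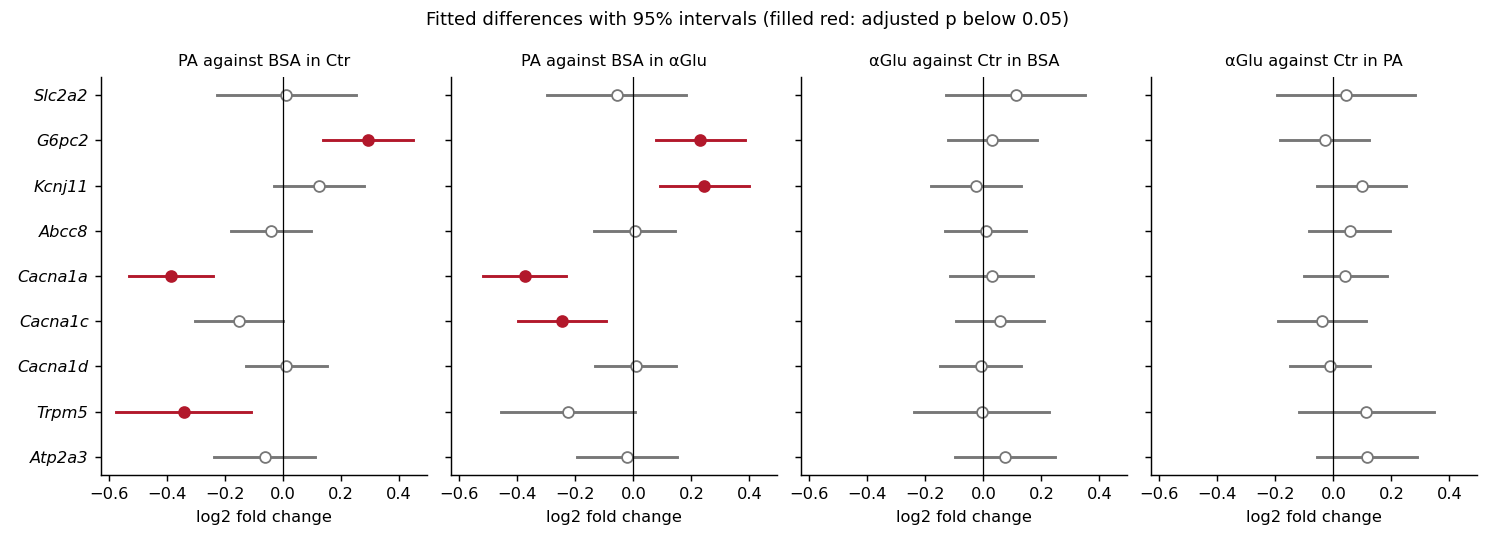
Fitted log2 fold change (x axis) of each gene (y axis) in 4 comparisons, with its 95% interval. Filled red points passed an adjusted p of 0.05. The PA responses of G6pc2 and Cacna1a pass in both ASO groups with opposite signs, and no gene passes in the 2 panels that compare αGlu with Ctr.

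At the entry of glucose, Slc2a2 encodes GLUT2, the glucose transporter of mouse beta-cells (chr3:28697903-28731359, plus strand, GRCm38). The lowest, median and highest values were 232, 330.2 and 537 CPM in Ctr BSA, and 272, 316 and 573 CPM in Ctr PA. In αGlu BSA they were 287, 347 and 548 CPM, and in αGlu PA 279.6, 365 and 439 CPM. The groups overlapped, and the highest library of each came from batch 2. The fitted difference of PA from BSA was 0.01 in Ctr cells (95% interval -0.23 to 0.25, adjusted p = 0.957) and -0.06 in αGlu cells (-0.30 to 0.18, adjusted p = 0.757).

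G6pc2 (chr2:69211073-69227841, plus strand) hydrolyses glucose 6-phosphate back to glucose. Its lowest, median and highest values were 714, 1234 and 1715 CPM in Ctr BSA and 1019, 1382 and 2172 CPM in Ctr PA. In αGlu cells they were 747, 1206 and 1822 CPM with BSA and 1014, 1388 and 1846 CPM with PA. The pooled groups overlapped because the batches stood far apart, but within batch 1 all PA libraries lay above all BSA libraries under both ASOs. G6pc2 rose with PA by 0.29 ± 0.07 (SE) on the log2 scale in Ctr cells (adjusted p = 0.00442) and by 0.23 ± 0.07 in αGlu cells (adjusted p = 0.0221). Fitted in batch 1 alone, the increase was 0.38 in Ctr (adjusted p = 0.0174) and 0.38 in αGlu cells (adjusted p = 0.0211). Within batch 2 the groups overlapped, and the values were 0.19 (adjusted p = 0.221) and 0.08 (adjusted p = 0.677). The PA response in batch 2 minus that in batch 1 was -0.26 on the log2 scale (unadjusted p = 0.00983, adjusted p = 0.531), which did not pass over all genes. The call in αGlu cells was also lost without αGlu PA library S4 (0.21, adjusted p = 0.0548), without αGlu PA library S8 (0.21, adjusted p = 0.0506) and without αGlu BSA library S10 (0.19, adjusted p = 0.0662).

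The promoter of G6pc2 is shown because this gene had the highest level and rose under both ASOs, and because its window, of the 6 found, was the one that held a half-site of the MAF recognition element. The 250 bases upstream of its RefSeq start (GRCm38.p6, chr2:69219699-69219948, plus strand) read as follows, with capitals marking TGCTGAC on the reverse strand.
G6pc2 promoter: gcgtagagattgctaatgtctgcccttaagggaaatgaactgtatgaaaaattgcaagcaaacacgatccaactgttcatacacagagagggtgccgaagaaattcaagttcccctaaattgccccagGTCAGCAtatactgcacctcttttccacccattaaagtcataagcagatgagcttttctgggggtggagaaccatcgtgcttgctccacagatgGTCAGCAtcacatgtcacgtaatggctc
The matches began 122 and 28 bases before the start. This RefSeq start lies inside the longer span given for the gene above. Promoter windows of the same length were found for 6 of the 9 genes, and 4 motifs were searched on both strands. These were TGCTGAC, found in 3.81% of all 32851 windows, TATAAA (12.4%), TGACGT (6.47%) and TAATTA (4.84%). TATAAA occurred 3 times in the window of Cacna1d, the first pair overlapping, and the windows of Slc2a2, Cacna1c, Trpm5 and Atp2a3 held none of these letters. A match is a description of the letters and not a bound site. Mafa, the beta-cell transcription factor that binds MAF elements, fell with PA by 0.41 on the log2 scale in Ctr (adjusted p = 7.84e-04) and by 0.28 in αGlu cells (adjusted p = 0.0148). Whether Mafa acts on G6pc2 in these cells was not tested.

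Of the other genes for glucose entry, phosphorylation and dephosphorylation, 1 of 8 rose and 3 fell with PA in Ctr cells, and 1 rose and 4 fell in αGlu cells. The median over the list was -0.21 and -0.24, respectively. G6pc3, the ubiquitous glucose-6-phosphatase, was the one that rose, by 0.27 ± 0.07 in Ctr (adjusted p = 0.00696) and by 0.30 ± 0.07 in αGlu cells (adjusted p = 0.00300). Hk2, a hexokinase of high glucose affinity, fell by 0.92 ± 0.26 in Ctr (adjusted p = 0.00858) and by 1.04 ± 0.26 in αGlu cells (adjusted p = 0.00389), from a low level of 2.63 ± 1.61 TPM in Ctr BSA. Hk1, of the same kind, fell by 0.47 ± 0.16 (adjusted p = 0.0326) and 0.80 ± 0.17 (adjusted p = 7.88e-04), and Pfkfb2, which makes the activator of phosphofructokinase, fell by 0.24 ± 0.08 (adjusted p = 0.0284) and 0.29 ± 0.08 (adjusted p = 0.00998).

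Kcnj11 and Abcc8 encode the pore Kir6.2 and the regulatory sulfonylurea receptor SUR1 of the KATP channel. They lie side by side on the minus strand of chromosome 7 (chr7:46093953-46100764 and chr7:46104523-46180033), 3758 bases apart with no annotated gene between them. Kcnj11 had lowest, median and highest values of 51.6, 70.6 and 79.7 CPM in Ctr BSA and 65.2, 74.4 and 80.4 CPM in Ctr PA. In αGlu BSA it was at 55.0, 66.6 and 72.8 CPM, and in αGlu PA at 69.2, 77.3 and 87.9 CPM. All αGlu PA libraries lay above the αGlu BSA libraries of their own batch, with overlap when the batches were pooled. Kcnj11 rose by 0.24 ± 0.07 in αGlu cells (adjusted p = 0.0159). The difference was 0.12 ± 0.07 in Ctr cells (adjusted p = 0.227). That of the PA responses between the ASOs was 0.12 (95% interval -0.10 to 0.34, adjusted p = 0.999), so no difference between Ctr and αGlu was shown. Without Ctr BSA library S1, which held the second highest Kcnj11 value of its group, the Ctr difference was 0.19 and passed (adjusted p = 0.0307). In αGlu cells, batch 1 alone gave 0.22 (adjusted p = 0.322) and batch 2 alone 0.26 (adjusted p = 0.0410).

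Abcc8 stayed within a narrow range. In Ctr BSA the lowest, median and highest values were 1584, 1886 and 2099.6 CPM, and in Ctr PA 1583, 1856 and 1928 CPM. They were 1627, 1934 and 1998 CPM in αGlu BSA, and 1728, 1899.7 and 1976 CPM in αGlu PA. The groups overlapped throughout. The fitted difference of PA from BSA was -0.04 in Ctr (95% interval -0.18 to 0.10, adjusted p = 0.671) and 0.00 in αGlu cells (-0.13 to 0.14, adjusted p = 0.968). The ratio of Abcc8 to Kcnj11, chosen after the values were seen and given without a test, on the TPM scale went from 12.7 ± 1.12 (SD, n = 6) with BSA to 11.3 ± 0.836 with PA in Ctr cells. In αGlu cells it went from 12.98 ± 0.601 with BSA to 11.01 ± 0.867 with PA. Its mean was lower with PA under both ASOs, with overlapping libraries.

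The alternative KATP subunits were scarce. Kcnj8, the pore Kir6.1, had 0 to 29 counts per library and was not tested. Abcc9, which encodes SUR2 of muscle and vascular KATP channels, was at 1.05 ± 0.847 TPM in Ctr BSA and fell with PA by 1.15 ± 0.40 in Ctr cells (adjusted p = 0.0303), with a difference of -0.65 ± 0.39 in αGlu cells (adjusted p = 0.229). Of 8 tested genes for these subunits and for other potassium channels, 1 rose and 1 fell in Ctr cells, and 2 rose and 0 fell in αGlu cells. Kcnk16, the islet two-pore channel TALK-1, rose by 0.21 ± 0.08 in Ctr (adjusted p = 0.0434) and by 0.26 ± 0.08 in αGlu cells (adjusted p = 0.0130). Kcnh6, an ERG-type channel, rose by 0.29 ± 0.08 in αGlu cells (adjusted p = 0.0111), and its difference was 0.19 ± 0.08 in Ctr cells (adjusted p = 0.0894).

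Among the 3 calcium channel pores, Cacna1a fell with PA under both ASOs, Cacna1c was called in αGlu cells, and Cacna1d did not pass. Cacna1a (chr8:84388440-84640246, plus strand) encodes the P/Q-type pore Cav2.1. In Ctr BSA it had lowest, median and highest values of 119.5, 132 and 148 CPM, and in Ctr PA 83.8, 104 and 109.9 CPM. In αGlu cells they were 127, 132 and 151 CPM with BSA, and 96.6, 104 and 117 CPM with PA. Every PA library lay below every BSA library of the same ASO, over both batches and within each. How many of all genes do so was not counted. Cacna1a fell by 0.39 ± 0.07 in Ctr (adjusted p = 1.75e-04) and by 0.37 ± 0.07 in αGlu cells (adjusted p = 2.52e-04). Among the 15916 genes tested, its p ranked 895th in Ctr and 948th in αGlu cells. In batch 1 alone it fell by 0.44 in Ctr (adjusted p = 0.0295) and by 0.40 in αGlu cells (adjusted p = 0.0470), and in batch 2 alone by 0.35 (adjusted p = 0.00976) and 0.35 (adjusted p = 0.00873).

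Cacna1c (chr6:118587240-119196418, minus strand) encodes the L-type pore Cav1.2, a main route of calcium entry in mouse beta-cells. Its lowest, median and highest values were 189, 209 and 227 CPM in Ctr BSA and 152, 194 and 208 CPM in Ctr PA, with overlap. With αGlu they were 199.9, 217 and 233 CPM in BSA and 157, 185 and 199 CPM in PA, without overlap over both batches and within each. Cacna1c fell by 0.25 ± 0.07 in αGlu cells (adjusted p = 0.0133), and its difference was -0.15 ± 0.07 in Ctr cells (adjusted p = 0.123). With the inferred sets as a block the Ctr difference was -0.16 and passed (adjusted p = 0.0330), and 4 of 6 sets were lower with PA. The responses under the ASOs differed by -0.10 (95% interval -0.31 to 0.12, adjusted p = 0.999), so they were not shown to differ. The αGlu call was lost when a batch was fitted alone, at -0.28 (adjusted p = 0.174) in batch 1 and -0.22 (adjusted p = 0.102) in batch 2.

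Cacna1d (chr14:30039939-30491455, minus strand), which encodes the L-type pore Cav1.3, was steady. Its lowest, median and highest values were 182, 209 and 255 CPM in Ctr BSA and 167, 215 and 259.5 CPM in Ctr PA. They were 179.6, 207 and 234 CPM in αGlu BSA, and 186, 211 and 241 CPM in αGlu PA. The fitted difference with PA was 0.01 in Ctr (95% interval -0.13 to 0.15, adjusted p = 0.923) and 0.01 in αGlu cells (-0.13 to 0.15, adjusted p = 0.942). On the TPM scale the ratio of Cacna1a to Cacna1d, chosen after the values were seen, stood at 0.785 ± 0.110 (SD, n = 6) in Ctr BSA and 0.595 ± 0.0592 in Ctr PA, with libraries from 0.645 to 0.950 and from 0.512 to 0.686. In αGlu cells it was 0.806 ± 0.103 with BSA and 0.617 ± 0.0627 with PA. The exons of Cacna1d share 589 bases with those of Chdh on the other strand, which had a median of 93 counts per library beside 5573.5 for Cacna1d, and those of Cacna1a share 435 bases with the antisense Gm16183, which had 0 counts in every library. The library kit kept strand, but whether the counting used it was not stated in the study's methods.

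The other calcium channel subunits held 2 genes that fell and none that rose in Ctr cells, out of 9 tested, and 0 of 9 called in αGlu cells. Cacna2d2, an auxiliary α2δ subunit, fell by 0.66 ± 0.22 in Ctr cells (adjusted p = 0.0282), from 0.985 ± 0.104 TPM in Ctr BSA. Cacnb4, an auxiliary β subunit, fell by 0.92 ± 0.34 (adjusted p = 0.0430), from 0.255 ± 0.0775 TPM. In αGlu cells their differences were -0.56 ± 0.22 (adjusted p = 0.0633) and -0.57 ± 0.34 (adjusted p = 0.229). Cacna1e, the R-type pore Cav2.3, had 0 to 19 counts per library and was not tested.

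Trpm5 (chr7:143069153-143094642, minus strand) encodes a calcium-activated cation channel that adds to depolarisation. With BSA, Ctr libraries gave a lowest, median and highest value of 10.3, 24.4 and 43.3 CPM, and with PA they gave 9.26, 20.4 and 30.5 CPM. In αGlu cells they were 11.6, 22.7 and 40.1 CPM with BSA and 10.5, 19.5 and 34.6 CPM with PA. The groups overlapped over both batches, and in batch 2 all Ctr PA libraries lay below all Ctr BSA libraries. Trpm5 fell by 0.34 ± 0.11 in Ctr cells (adjusted p = 0.0237), and its difference was -0.22 ± 0.11 in αGlu cells (adjusted p = 0.141). Within the inferred sets, the PA library lay below the BSA library in 6 of 6 under both ASOs. With the sets as a block the αGlu difference was -0.22 and passed (adjusted p = 0.0242). The difference between both responses was 0.12 (95% interval -0.21 to 0.45, adjusted p = 0.999).

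The Trpm5 call in Ctr cells, which the block kept, depended on single libraries in the fit without it. There it was lost without Ctr BSA library S1 (adjusted p = 0.0587), S9 (0.0578) or S21 (0.0761) and without Ctr PA library S7 (0.0587) or S11 (0.0519), with log2 fold changes of -0.28 to -0.32. It was also lost when Ctr BSA and Ctr PA were fitted alone (-0.35, adjusted p = 0.0558), and in batch 1 alone (-0.44, adjusted p = 0.153) and batch 2 alone (-0.28, adjusted p = 0.219). Trpm5 shares 220 of its 6398 exon bases with Tssc4 on the other strand. Its CPM in Ctr BSA averaged 48.7 ± 9.95 (SD, n = 6), and 53.7 ± 12.4 in Ctr PA, higher than Trpm5 in both.

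The other depolarising and sodium channels held 2 of 8 tested genes that rose and 1 that fell in Ctr cells, and 0 that rose and 1 that fell in αGlu cells. Ano1, a calcium-activated chloride channel, fell by 0.93 ± 0.28 in Ctr (adjusted p = 0.0131) and by 0.98 ± 0.28 in αGlu cells (adjusted p = 0.0101). Ano1 is also found in pancreatic acinar and ductal tissue, and its log2 difference of batch 2 from batch 1 was -2.27, where acinar markers were lower too. The part of cell makeup in its PA response was not tested. The sodium channel pores Scn3a and Scn9a rose in Ctr cells by 0.25 ± 0.08 (adjusted p = 0.0202) and 0.23 ± 0.08 (adjusted p = 0.0359). In αGlu cells their differences were 0.05 ± 0.08 (adjusted p = 0.721) and 0.06 ± 0.08 (adjusted p = 0.632). The difference between both PA responses passed for 0 of these 8 genes.

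Atp2a3 (chr11:72961169-72993044, plus strand) encodes SERCA3, an ER calcium pump. Its lowest, median and highest values were 768, 1144 and 1595 CPM in Ctr BSA and 798, 1068 and 1296 CPM in Ctr PA. In αGlu cells they were 890.2, 1225 and 1458 CPM with BSA, and 919, 1144 and 1419.6 CPM with PA, with overlap throughout. The fitted difference with PA was -0.06 in Ctr (95% interval -0.24 to 0.11, adjusted p = 0.598) and -0.02 in αGlu cells (-0.20 to 0.15, adjusted p = 0.872).

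Atp2a2, which encodes the housekeeping pump SERCA2, rose by 0.39 ± 0.06 in Ctr (adjusted p = 3.88e-05) and by 0.31 ± 0.06 in αGlu cells (adjusted p = 4.18e-04). The ratio of Atp2a3 to Atp2a2, chosen after the values were seen, stood at 0.796 ± 0.115 (SD, n = 6) on the TPM scale in Ctr BSA and at 0.586 ± 0.0687 in Ctr PA, with libraries from 0.701 to 0.951 and from 0.471 to 0.663, which did not overlap. In αGlu cells it was 0.800 ± 0.0775 with BSA and 0.636 ± 0.0770 with PA, and the libraries just overlapped.

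Among 14 tested genes for other calcium pumps, exchangers and stores, 4 rose and 2 fell with PA in Ctr cells, and 3 rose and 3 fell in αGlu cells. Itpr2, an IP3 receptor that releases ER calcium, rose by 0.47 ± 0.07 in Ctr (adjusted p = 2.79e-05) and by 0.50 ± 0.07 in αGlu cells (adjusted p = 1.24e-05). Slc8a1, the sodium-calcium exchanger, rose by 0.49 ± 0.08 (adjusted p = 3.74e-05) and 0.29 ± 0.08 (adjusted p = 0.00720). Atp2b4, a plasma membrane calcium pump, fell by 0.27 ± 0.07 (adjusted p = 0.00697) and 0.28 ± 0.07 (adjusted p = 0.00483). Over all 5 lists of related genes, 8 of 47 tested genes rose and 9 fell in Ctr cells, and 6 rose and 8 fell in αGlu cells. Of all genes tested, 15.5% rose and 14.5% fell in Ctr cells, and 14.4% rose and 14.2% fell in αGlu cells. These shares apply to each list above, and the total counts lie near them, so they say nothing particular to these genes.

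**Figure D3:**
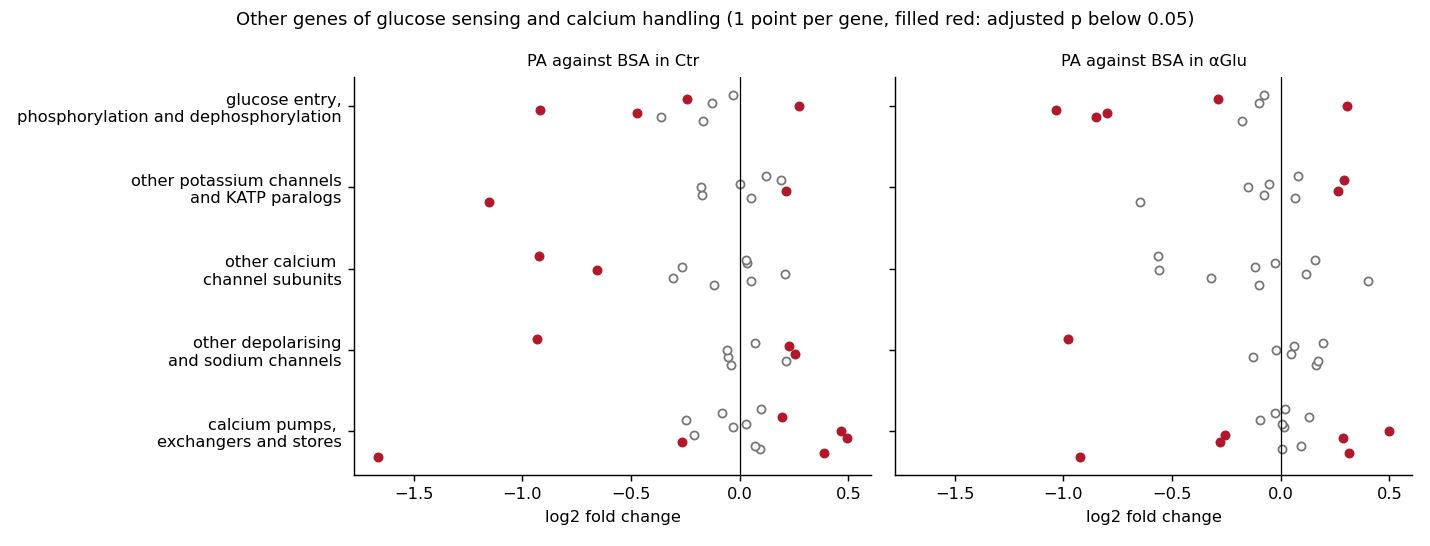
Fitted log2 fold change with PA (x axis) of the 47 tested genes related to the 9, by role (y axis), in Ctr cells (left) and αGlu cells (right), 1 point per gene. Filled red points passed an adjusted p of 0.05, 8 to the right of 0 and 9 to the left in Ctr cells, and 6 to the right and 8 to the left in αGlu cells.

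Some markers of cell types moved with PA beside these genes. The shares of all genes were 15.5% raised and 14.5% lowered in Ctr cells, and 14.4% and 14.2% in αGlu cells. Of 10 beta-cell markers, Ins1 (-0.44, adjusted p = 5.80e-04), Ins2 (-0.34, adjusted p = 0.00880) and Mafa fell in Ctr cells, Ucn3 (0.58, adjusted p = 5.15e-06) and Iapp (0.43, adjusted p = 0.00187) rose, and the other 5, Pdx1 and Nkx6-1 among them, did not pass. Of 10 acinar markers 7 fell in Ctr cells and 6 in αGlu cells, and their summed level ran from 428 to 23238 CPM in Ctr BSA and from 229 to 8504 CPM in Ctr PA. Of 6 tested fibroblast and stellate markers 5 fell in Ctr cells and 3 in αGlu cells, with sums of 67.2 to 416 CPM in Ctr BSA and 6.89 to 42.6 CPM in Ctr PA. Of 8 macrophage markers 6 fell in Ctr cells and 1 in αGlu cells, with sums of 77.6 to 359 CPM and 83.7 to 128 CPM in Ctr BSA and Ctr PA. The median log2 fold change of this list was -2.83 in Ctr and -0.44 in αGlu cells. The difference between both PA responses passed for 0 of the 8 markers of this list. Its sum was mostly C1qa, which over all groups averaged 69.3 of 95.9 CPM in batch 1 and 103 of 156 CPM in batch 2. Of 4 delta- and PP-cell markers 2 fell in Ctr cells and 1 in αGlu cells, with sums of 801 to 1882 CPM in Ctr BSA and 569 to 1107 CPM in Ctr PA. Of 6 ductal markers 2 fell under either ASO, with sums of 265 to 547 CPM and 199.6 to 483 CPM in Ctr BSA and Ctr PA. The median of the ductal list was -0.55 in Ctr and -0.61 in αGlu cells. Krt7 held much of its sum, with a mean over all groups of 233 of 452 CPM in batch 1 and 243 of 327 CPM in batch 2. Of 7 alpha-cell markers 1 rose and 1 fell in Ctr cells, and 1 rose in αGlu cells, while 0 of 6 endothelial and 0 of 7 glial markers passed under either ASO. No marker on these lists was at 0 in every library of any of the 4 groups. The part of these cells in the PA responses was not tested.

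For none of the 9 genes did the difference between αGlu and Ctr pass. In BSA the largest difference was that of Slc2a2, at 0.11 (95% interval -0.13 to 0.35, adjusted p = 1), and in PA that of Atp2a3, at 0.12 (-0.06 to 0.29, adjusted p = 0.993). The share of all genes called was 0% in BSA and 0% in PA, so the members did not stand apart in this respect. At an unadjusted p below 0.05, 461 genes in BSA and 538 in PA passed, none of them a member, and DESeq2 also called 0 members in either. Both counts lie below the number that chance alone would give among 15916 genes at that threshold. They are therefore not read as responding genes. With the inferred sets as a block, 9 genes passed in BSA and none did in PA, and 0 of the 9 members were among them. For Cacna1a the interval ran from -0.11 to 0.17 in BSA and from -0.10 to 0.19 in PA, and neither reached a fall of the size seen with PA. The intervals for G6pc2 ran from -0.12 to 0.18 and from -0.18 to 0.12. Within batch 1 all αGlu BSA libraries lay above all Ctr BSA libraries for Slc2a2, with means of 307 and 259 CPM. Within batch 2 they overlapped, with means of 455 and 458 CPM. No other member separated Ctr and αGlu libraries in this way in either medium. The share of all genes that separate so with 3 libraries per group was not counted, so this is not read as an effect of the ASO.

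The PA responses in αGlu and Ctr cells were compared directly by the interaction term. It called 0% of all genes and 0 of 9 members, with 332 genes at an unadjusted p below 0.05 and none of them a member, and DESeq2 also called 0 members. The count at the unadjusted p again lies below what chance alone would give. The largest differences among the members were those of Kcnj11, at 0.12, and Trpm5, at 0.12. For Cacna1a, the response in αGlu minus that in Ctr cells was 0.01 (95% interval -0.19 to 0.22), and for G6pc2 it was -0.06 (-0.28 to 0.16).

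Between the batches, in contrast, most of the 9 genes differed, and all that did were higher in batch 2. Trpm5 was higher by 1.41 ± 0.08 on the log2 scale (adjusted p = 1.33e-12), with 9.26 to 16.8 CPM in the 12 libraries of batch 1 and 26.2 to 43.3 CPM in those of batch 2. G6pc2 was higher by 0.91 ± 0.05 (adjusted p = 1.81e-12), with 714 to 1098 CPM in batch 1 and 1548 to 2172 CPM in batch 2. Atp2a3 was higher by 0.51 ± 0.06 (adjusted p = 1.07e-07), and its batches did not overlap either. How many of all genes separate the batches so was not counted. Slc2a2 was higher by 0.59 ± 0.08 (adjusted p = 1.56e-06), Cacna1d by 0.23 ± 0.05 (adjusted p = 2.33e-04) and Kcnj11 by 0.20 ± 0.05 (adjusted p = 0.00315), with overlap of the batches. For Abcc8 (0.07, 95% interval -0.03 to 0.16), Cacna1a (-0.01, -0.11 to 0.09) and Cacna1c (0.03, -0.07 to 0.14) the difference did not pass. In all, 6 of 9 were called raised, where 26.1% of all genes were, and 0 lowered, where 25.4% were. The rank of Trpm5 from the top by log2 fold change was 48 among 15916 genes, and that of G6pc2 was 243.

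Markers of some cell types differed between the batches too, where 26.1% of all genes were raised and 25.4% lowered. All 10 beta-cell markers were higher in batch 2, with summed levels of 84076 to 134092 CPM in batch 1 and 109882 to 151845 CPM in batch 2, and Ucn3 was higher by 0.85 (adjusted p = 7.64e-12). All 10 acinar markers were lower, with sums of 3156 to 23238 CPM in batch 1 and 229 to 617 CPM in batch 2, with Pnlip at -5.36 on the log2 scale (adjusted p = 1.93e-12). Of 7 alpha-cell markers 5 were lower, with Gcg at -0.57 (adjusted p = 6.84e-05), and 1 was higher. Of 6 ductal markers 4 were lower and 1 was higher. Lower too were 2 of 4 delta- and PP-cell and 2 of 6 endothelial markers. Higher were 2 of 7 glial and 1 of 8 macrophage markers, and 0 of 6 tested fibroblast and stellate markers passed. The endothelial, glial, macrophage and fibroblast counts lie near or below the shares of all genes, so they say nothing particular to those cells. The delta- and PP-cell list holds 4 genes only. The part of cell makeup in the batch difference of the 9 genes was not tested. The difference of the PA response between the batches passed for 0.0377% of all genes in the raised and 0.0251% in the lowered direction, and for 0 of the 9 genes. With the inferred sets as a block the shares were 0.245% and 0.402%, again with 0 of the 9 genes.

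**Figure D4:**
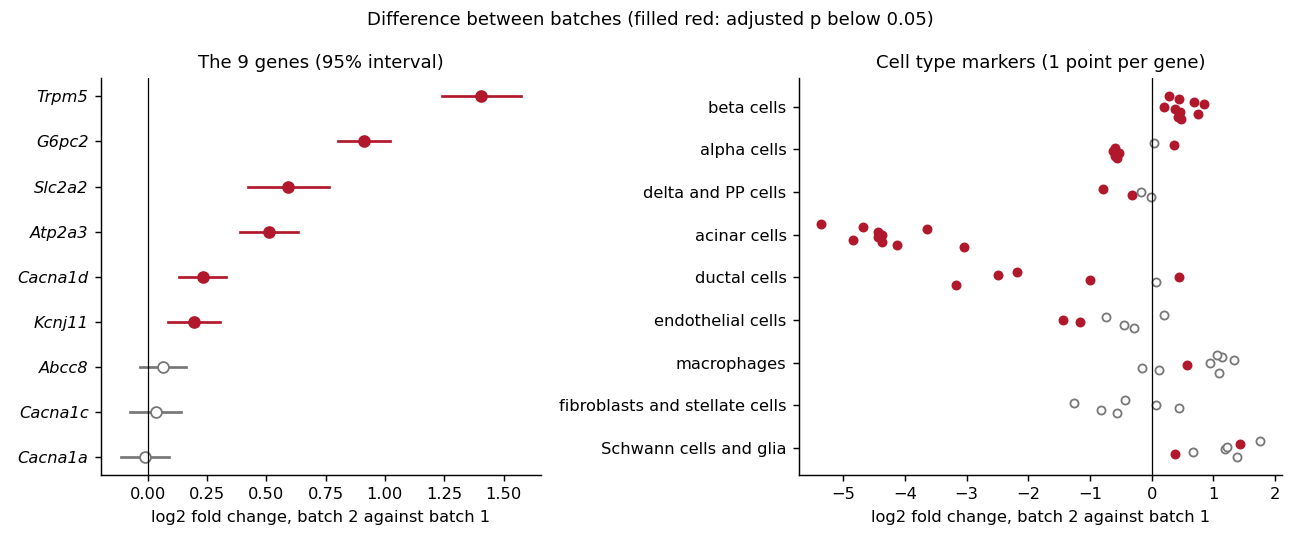
Fitted log2 fold change of batch 2 against batch 1 (x axis) for the 9 genes with 95% intervals (left) and for the 64 tested cell type markers, 1 point per gene (right). Filled red points passed an adjusted p of 0.05. Trpm5 and G6pc2 lie farthest right among the 9, all beta-cell markers lie right of 0 and all acinar markers left of it.

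Over the 24 libraries, with batch means subtracted, the 9 genes varied together in some pairs and oppositely in others. These correlations of log2 CPM are descriptions, since the libraries share treatment groups and scaling. Cacna1a and Cacna1c varied together most closely (r = 0.86), followed by Cacna1a with Trpm5 (r = 0.69), and G6pc2 ran opposite to Cacna1a (r = -0.64). Kcnj11 and Abcc8 gave r = 0.61. Among 15907 other genes, the closest in pattern to Cacna1a were Dop1b (r = 0.96) and Tpcn1 (r = 0.94), which encodes an endolysosomal cation channel. To G6pc2 the closest were Tspan13 (r = 0.95) and Ufsp2 (r = 0.94), and to Kcnj11 they were Nkx2-2 (r = 0.92), an islet transcription factor, and Sstr3 (r = 0.92), a somatostatin receptor. Abcc8 came closest to Mlxipl (r = 0.92), which encodes the glucose-responsive factor ChREBP, and Sgsm1 (r = 0.92). Slc2a2 came closest to Marchf6 (r = 0.87) and the zinc transporter Slc30a8 (r = 0.86), Cacna1c to the clock gene Per3 (r = 0.90) and the RNA editor Adarb1 (r = 0.89), and Cacna1d to Creb3l2 (r = 0.89) and Srrm2 (r = 0.86). Trpm5 came closest to Ldhb (r = 0.90) and Cyhr1 (r = 0.85), and Atp2a3, whose best match was the weakest of the 9, to Nfasc (r = 0.83) and Rec8 (r = 0.77).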

How the data were processed

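mRNA of 24 libraries of mouse islet cells was analysed. The authors made stranded mRNA libraries, and the QIAGEN RNA-seq Analysis Portal served for annotation and normalization. The submitters' processing notes name the build GRCm38. Aligner, annotation and strand setting: not given in the sources used here. Deposited counts are reads on exons per gene, without molecular identifiers, and the deposited TPM values were scaled per length and library by the authors. TPM served for levels between genes only, and empty cells were read as 0. Totals were 18214719 to 35001979 counts, and 1 row without a gene (0 counts) was left out.

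Counts were filtered with filterByExpr (minimum count 10), scaled by TMM and fitted with edgeR 4.0.16 (R 4.3.3, limma 3.58.1) by the quasi-likelihood test, with a term for each group and for batch over all libraries. Comparisons were PA against BSA in each ASO, αGlu against Ctr in each medium, both interactions and the batches, with two-sided p-values adjusted over 15916 genes at 0.05. The fit was tested on simulated data. Alternatives were DESeq2 1.42.0, upper-quartile scaling, hormone genes left out, other filters, no batch term, subsets of libraries, the study's threshold and the omission of each library, and, added after seeing the data, sets of consecutive libraries as a block. Positions come from GENCODE vM21 and promoters from RefSeq, both GRCm38. CPM for likeness used a prior count of 2. The members, gene lists and tests were chosen with earlier results of these data known. Named were all members, up to 3 called genes of smallest p per list and PA comparison, the relatives Kcnj8, Abcc9, Cacna1e and Atp2a2, and the 2 genes of most similar pattern for each member; markers and genes that share exon bases are named beside the results they touch. Columns of RPKM and CPM in the table were not used. One gene of the glucose list is not reported here. The human, protein and small RNA data were not analysed here.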

Additional observations from a re-analysis of the deposited data

Results flagged for a closer look

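In Ctr PA, Slc2a2 was at 573 CPM in library S23 of batch 2, far above the next library at 368.7 CPM, with a gap of 0.679 of the range of the group. Its neighbours in library number, S21 of Ctr BSA at 537 CPM, S22 of αGlu BSA at 548 CPM and S24 of αGlu PA at 439 CPM, were each the highest Slc2a2 library of their own group, so the whole set of 4 stood high. S23 was the one library so flagged among 36 sets of 6 (9 genes in 4 groups). Chance flags about 1 in 20 groups of independent values, a rate that need not hold here, where each group pools 2 batches.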

How the results depend on the processing

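Of the 2052 values of 63 results for single genes under the alternatives, 2029 kept their side of the threshold and, where called, their direction, while 20 lost and 3 gained a call, and 0 called values reversed. The sign turned in 121 values of results that had not passed. The fall of Cacna1a passed in each ASO group under all 34 alternatives that change the fit, though its fold lies under the study's threshold of 2, from -0.44 to -0.33 in Ctr and from -0.41 to -0.34 in αGlu cells. With PA in Ctr cells, 3 genes were called, but 1 without the batch term, 1 in batch 2 alone and 0 at the study's threshold of a fold change above 2. With PA in αGlu cells, 4 were called, but 2 without the batch term, 2 in batch 1 alone, 2 in batch 2 alone and 0 at a fold above 2. Between batches, 6 were called, but 1 at a fold above 2. The batches taken alone hold 3 libraries per group, which by construction lowers the number of calls. DESeq2, upper-quartile scaling, the omission of hormone genes and both other filters left the 3, 4 and 6 calls as they were in number. The groups share no replicate numbers in the labels, so the paired fit, chosen after seeing the data, took the 6 sets of 4 consecutive libraries as a replicate block. Deviations from group means within a batch correlated at 0.10 to 0.37 within sets of batch 1 and 0.02 to 0.18 in batch 2, against medians of -0.12 and -0.04 between sets, and 12 of 12 and 11 of 12 libraries were closest to one of their own set. This is a hint from the data, not from the labels. The study's figure legend gives 6 independent experiments, without saying which libraries made up each. With this replicate block 4 members were called with PA in Ctr cells and 5 in αGlu cells, no call was lost, and Cacna1c in Ctr (-0.16) and Trpm5 in αGlu cells (-0.22) gained one. Over all genes, the difference of the PA response between batches passed for 103 genes, and αGlu against Ctr in BSA for 9. Values of related genes and markers are from the fit without it. Depth limited Cacna1e, Kcnj8, Ryr2 and Atp2b3, which were not tested, and Trpm5, at 246 to 1225 counts per library, was the least covered of the 9.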
